A study of Mus musculus with 31 samples.

Results

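T and NK cell genes were followed through 31 RNA-seq libraries of sorted mouse haematopoietic stem and progenitor cells. The 10 members were taken by symbol (Trac, Trbc2, Cd3e, Cd3g, Cd2, Il2rb, Klrb1c, Gzma, Nkg7 and Ccl5), and each matched 1 of the 45706 gene identifiers in the 3 deposited count tables. All mice were wild-type C57BL/6 aged 10 weeks. They received 1 mg β-glucan intraperitoneally, or PBS alone. Long-term haematopoietic stem cells (HSC) were sorted from bone marrow on day 7 (3 β-glucan and 4 PBS libraries). On day 28, HSC and multipotent progenitors (MPP) were both sorted (4 β-glucan and 4 PBS libraries of each). In a further arm, β-glucan and PBS mice both received 150 mg/kg 5-fluorouracil (5-FU) on day 7, and HSC were sorted 14 days after that (4 libraries each). β-glucan is a fungal cell wall polysaccharide that acts on innate immune cells, and 5-FU is a drug that kills dividing cells. The labels do not say that each library came from a separate mouse, so the p-values measure the spread between these libraries. The members were selected on their lineage roles with their CPM, and their β-glucan over PBS and MPP over HSC differences in these same libraries, already known. Their fold changes and p-values are therefore given as a description and support nothing by themselves.

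T cells read antigen through a receptor of α and β chains that is held in a complex with the CD3 chains, which carry the signal into the cell. NK cells lack that receptor and are steered by lectin-like receptors, and both cell types grow on IL-2 or IL-15 and kill with granules of granzymes. Stem cells and multipotent progenitors give rise to both lineages but come well before either has formed. Some granule genes of killer cells are also used by granulocyte precursors.

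Every member was read in every library, with at least 69 counts for the lowest (Cd3g) and up to 18864 for the highest (Nkg7). All 10 passed the filter on low counts in all comparisons. Levels are CPM, the counts scaled to library size after trimmed-mean normalization within each table, and fold changes are log2 values from edgeR's quasi-likelihood test with its standard error (SE). Adjusted p-values are Benjamini-Hochberg values over all genes tested, and a gene was called below 0.05.

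Sequences bear on how Trbc2 can be read. The mouse β chain has a pair of constant-region genes, Trbc1 and Trbc2, next to each other on chromosome 6. Of the 50-base words of the Trbc2 transcript, 44.0% also occur in Trbc1, so short reads there cannot be placed with certainty. Over 390 aligned bases the genes were 98.97% identical, with 4 differences. The stretch that holds 3 of them is given from the GENCODE M21 transcripts, 5′ to 3′, with the bases that differ in capitals.
Trbc2: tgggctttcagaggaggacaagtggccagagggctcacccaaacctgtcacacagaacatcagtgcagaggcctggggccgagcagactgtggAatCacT
Trbc1: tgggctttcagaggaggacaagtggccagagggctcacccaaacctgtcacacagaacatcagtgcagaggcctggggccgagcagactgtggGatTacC
Klrb1c, which encodes NK1.1, shared 17.0% of its 50-base words with Gm44511, Klrb1-ps1, Klrb1a and Klrb1b, and the other 8 members shared none with any gene. By the exon coordinates in the tables, no exon of a member overlapped an exon of another gene.

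Promoters are shown for the granule genes Nkg7 and Gzma and for the neighbouring CD3 genes. The fold changes of Nkg7 and Gzma had opposite signs in MPP on day 28, where only that of Gzma was called. The promoters run from 250 bases before to 50 after the start in RefSeq GRCm38.p6, on the coding strand. Of the 10 members, 5 matched that table. Capitals mark matches, on either strand, to 3 short motifs. The letters TGTGGT stand for a RUNX core. The letters AGGAAG stand for an ETS core. The letters AGATAA stand for a GATA core.
Nkg7, chr7:43436888-43437187, plus strand: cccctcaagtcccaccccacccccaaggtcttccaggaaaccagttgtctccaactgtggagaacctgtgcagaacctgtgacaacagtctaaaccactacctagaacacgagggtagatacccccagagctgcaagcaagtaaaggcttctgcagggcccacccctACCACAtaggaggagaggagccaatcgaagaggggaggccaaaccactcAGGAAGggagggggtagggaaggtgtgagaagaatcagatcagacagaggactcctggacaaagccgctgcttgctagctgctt
Gzma, chr13:113100932-113101231, minus strand: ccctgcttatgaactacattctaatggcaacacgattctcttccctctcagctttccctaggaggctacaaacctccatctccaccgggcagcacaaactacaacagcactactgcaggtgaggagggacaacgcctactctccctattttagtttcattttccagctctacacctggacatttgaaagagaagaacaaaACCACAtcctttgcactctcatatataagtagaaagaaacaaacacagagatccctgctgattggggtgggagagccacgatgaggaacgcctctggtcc
Cd3e, chr9:45009562-45009861, minus strand: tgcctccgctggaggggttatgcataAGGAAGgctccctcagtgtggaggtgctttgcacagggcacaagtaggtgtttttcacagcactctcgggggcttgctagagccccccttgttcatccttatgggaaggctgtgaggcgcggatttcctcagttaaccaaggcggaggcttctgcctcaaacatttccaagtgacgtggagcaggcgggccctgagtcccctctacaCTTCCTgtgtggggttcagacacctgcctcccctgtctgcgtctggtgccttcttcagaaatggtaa
Cd3g, chr9:44980382-44980681, minus strand: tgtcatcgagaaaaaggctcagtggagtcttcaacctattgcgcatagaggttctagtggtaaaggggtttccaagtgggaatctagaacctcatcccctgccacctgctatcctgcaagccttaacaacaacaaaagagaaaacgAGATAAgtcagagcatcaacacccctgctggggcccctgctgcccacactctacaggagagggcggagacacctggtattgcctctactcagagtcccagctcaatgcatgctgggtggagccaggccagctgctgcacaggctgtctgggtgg
Nkg7 had 1 RUNX and 1 ETS match, Gzma 1 RUNX match, Cd3e 2 ETS matches and Cd3g 1 GATA match. The promoter of Klrb1c, which is not printed, had 1 RUNX and 3 ETS matches. Among 32851 mouse promoters of this length, 16.8% held the RUNX letters, 35.4% the ETS letters and 11.2% the GATA letters. A match describes the letters only.

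The libraries held between 19331663 and 39485556 assigned counts (median 29751430). Of the HSC markers, Kit, the stem cell factor receptor, averaged between 171 and 747 CPM across the 8 groups. On day 28 Kit was at similar levels in HSC (171 and 237 CPM) and in MPP (204 and 218 CPM). Procr averaged 56.6 and 53.1 CPM in β-glucan and PBS HSC on day 7, and between 4.91 and 9.37 CPM in the other groups. The summed LT-HSC markers averaged 1908 and 2147 CPM on day 7, and between 437 and 629 CPM in the other groups. Transcripts of mature cells were also present in every group. The 10 neutrophil markers took on average between 5.14% and 16.8% of counts and the 10 erythroid markers between 2.68% and 19.9%. In bulk samples such as these, fewer cells of a type and less RNA per cell cannot be told apart. Of the defining T and NK genes, Cd4, Cd8a and Ncr1 were low. Group means were between 1.90 and 17.5 CPM for Cd4, between 0.953 and 4.19 CPM for Cd8a and between 1.85 and 5.81 CPM for Ncr1. Lck, a kinase of T cell receptor signalling, ranged higher, between 9.27 CPM (PBS HSC after 5-FU) and 57.4 CPM (PBS HSC, day 7). A library titled MPP, PBS, replicate 1 carries an HSC cell-type tag, and its title was followed. With it included, the summed megakaryocyte and platelet markers of PBS MPP were between 82.5 and 89.1 CPM, against 219 to 529 CPM in PBS HSC of day 28. The summed LT-HSC markers overlapped, with 423 to 504 CPM in PBS MPP and 475 to 745 CPM in PBS HSC.

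Nkg7, a membrane protein of cytotoxic granules, stood far above the other members in every library. Per kilobase of transcript it averaged between 436 CPM (PBS HSC, day 7) and 669 CPM (β-glucan HSC, day 7). Ccl5, a chemokine released by T and NK cells, was next in all 8 groups, between 22.3 CPM per kilobase (PBS HSC after 5-FU) and 61.2 CPM per kilobase (PBS HSC, day 7). The other 8 members lay below Ccl5, down to 2.21 CPM per kilobase, and most neighbours in that order overlapped in their libraries. Klrb1c was lowest in 7 of the 8 groups, and Il2rb was lowest in PBS HSC after 5-FU. Nkg7 had between 35.1 and 166 times the CPM of Gzma, the granzyme A gene, and made up between 68.8% and 89.3% of the summed CPM of the 10 members.

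**Figure D1:**
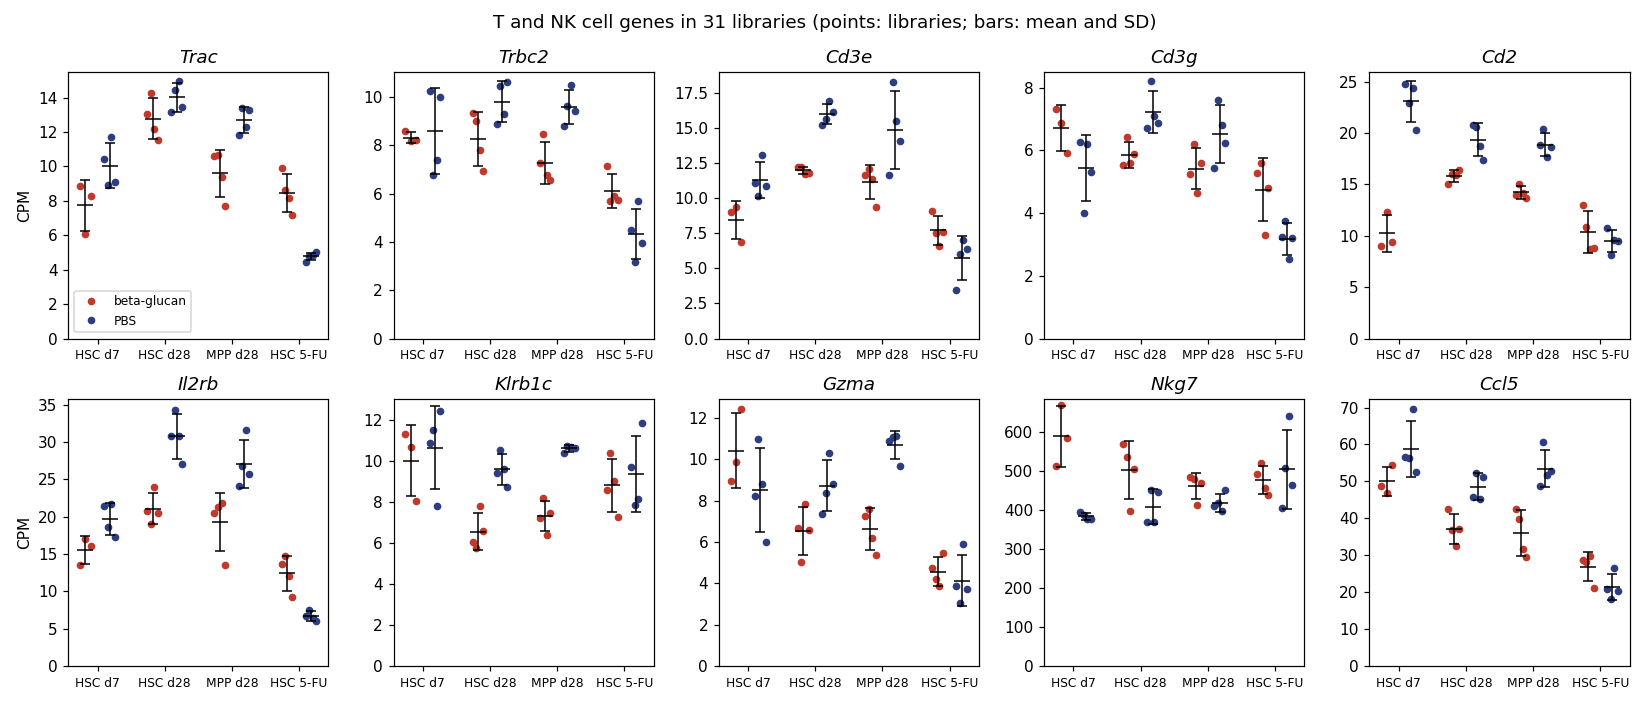
CPM of each member (vertical axis, from 0) in the libraries of the 4 settings, with β-glucan in red left of PBS in blue. Points are libraries and bars give mean and SD. Nkg7 lies between 368 and 668 CPM and the members other than Nkg7 and Ccl5 at or below 34.4 CPM, and in MPP on day 28 the β-glucan points of Gzma, Klrb1c and Cd2 lie wholly below the PBS points.

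On day 7, Cd2 fell and Nkg7 rose in β-glucan HSC, and the T cell receptor and CD3 genes did not pass the test. Cd2, an adhesion receptor of T and NK cells that mouse B cells also carry, had 9.01, 12.3 and 9.42 CPM in β-glucan HSC, against 24.8, 22.9, 24.3 and 20.3 CPM in PBS HSC. All 3 β-glucan libraries lay below all 4 PBS libraries. The change was -1.17 ± 0.15 (SE; edgeR adjusted p = 0.000959). Nkg7 had 512, 668 and 583 CPM in β-glucan HSC, against 394, 387, 376 and 376 CPM in PBS HSC. Here every β-glucan library was above every PBS library. The change was 0.62 ± 0.09 (SE; edgeR adjusted p = 0.00226). Both calls held in all 13 alternatives.

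With these, 2 of 10 members were called, where 6.72% of the 16403 genes tested were called. The other members were smaller in change, and 7 of the 10 had negative values, with a median of -0.16 where the median of all genes was -0.00557. Trac, the α chain constant region, averaged 7.73 ± 1.48 CPM in β-glucan HSC (SD, n = 3) and 10.0 ± 1.31 CPM in PBS HSC (SD, n = 4), a difference of -0.38 ± 0.18. Cd3e (-0.42 ± 0.17) and Il2rb (-0.34 ± 0.14) were also at lower values without overlap, and with Trac and Cd2 they made 4 members whose β-glucan libraries all lay below PBS, where 10.3% of all genes did so. Trbc2 (-0.05 ± 0.19), Cd3g (0.30 ± 0.20), Klrb1c (-0.09 ± 0.19), Gzma (0.29 ± 0.21) and Ccl5 (-0.23 ± 0.11) overlapped between the groups. The adjusted p-values of these 8 by edgeR were between 0.179 and 0.926.

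The wider lists of day 7 are set beside the 6.72% of all genes called in either direction. The T cell list had 3 of 23 tested genes lower and none higher (median -0.27). These were Lef1, a transcription factor of the T lineage (-1.32 ± 0.24), Cd8b1, a CD8 chain (-1.42 ± 0.27), and Rhoh, a small GTPase of lymphocytes (-0.30 ± 0.07). None of 24 NK genes was called by edgeR, with 4 at an unadjusted p below 0.05 (median 0.12), a level that 20% of all genes reached. The granule list had Srgn, the core protein that packs granules (0.39 ± 0.09), and Rab27a, which docks them (0.58 ± 0.15), higher among 10 tested. The chemokine list had Ccr7, a lymph node homing receptor (-1.23 ± 0.20), and Ccl3 (-0.58 ± 0.11) lower among 10 tested. In the IL-2 and IL-15 pathway, Il2ra, the α receptor chain (-1.40 ± 0.31), and Jak1 (-0.28 ± 0.07) were lower among 10 tested.

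Markers of other cells moved beside Cd2 and Nkg7 on day 7. B cell markers were lower for 13 of 16 genes (median -1.41), and their summed level was between 1218 and 1791 CPM in β-glucan HSC, against 2325 to 2526 CPM in PBS HSC. Neutrophil markers were higher for 7 of 10 genes (median 0.77), with an average of 9.66% of counts in β-glucan HSC and 5.61% in PBS HSC. Erythroid markers were lower for 10 of 10 genes (median -1.35). Plasmacytoid dendritic cell markers were lower for 5 of 10 genes (median -0.48), and monocyte and macrophage markers were higher for 5 of 12 (median 0.39). Their part in the changes of Cd2 and Nkg7 was not tested.

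**Figure D2:**
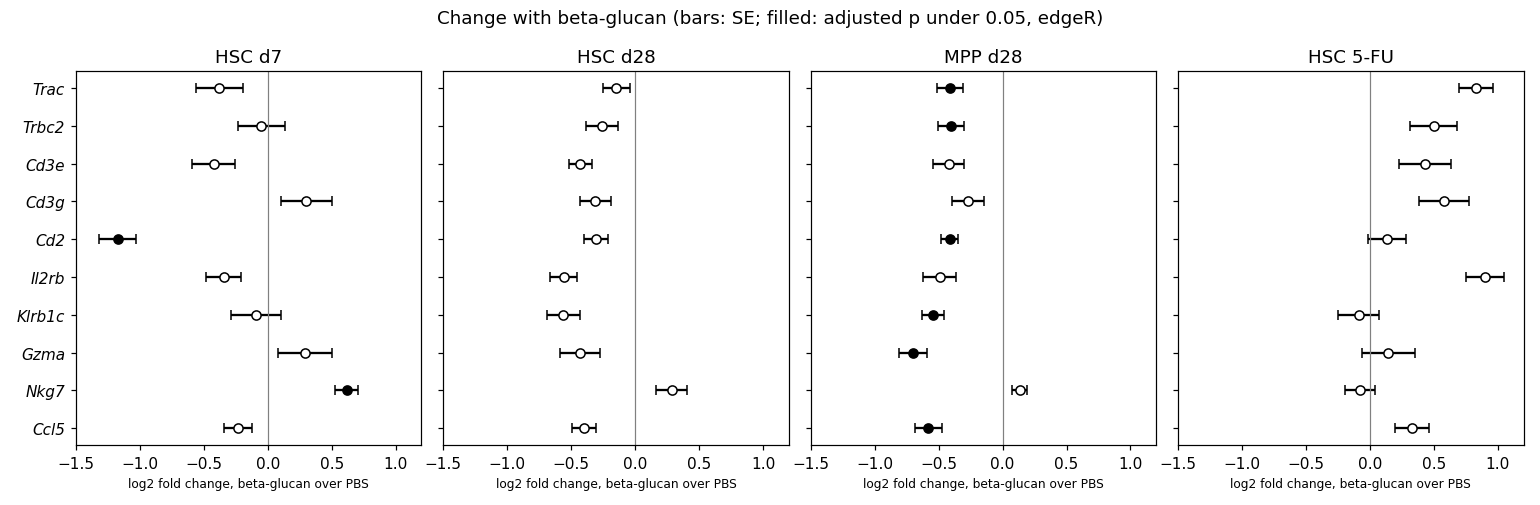
log2 fold change of each member, β-glucan over PBS (horizontal axis), with SE bars, in the 4 settings. Filled points have an adjusted p below 0.05 in edgeR, and they are Cd2 and Nkg7 on day 7 and 6 genes in MPP on day 28.

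On day 28, MPP from β-glucan mice had lower values of 9 members, and 6 of them were called. Among 15828 genes tested, 4.63% were called, and 1.91% of the genes tested were called lower. Gzma had 7.26, 7.61, 6.20 and 5.37 CPM in β-glucan MPP, against 10.9, 11.1, 11.1 and 9.69 CPM in PBS MPP. All β-glucan libraries were below all PBS libraries. The change was -0.70 ± 0.11 (SE; edgeR adjusted p = 0.00708), the largest of the 10 members in this comparison. Ccl5 had 42.5, 39.9, 31.7 and 29.6 CPM in β-glucan MPP, against 48.8, 60.7, 51.6 and 52.8 CPM in PBS MPP, again without overlap (-0.58 ± 0.10; edgeR adjusted p = 0.0131). Klrb1c had 7.23, 8.18, 6.37 and 7.43 CPM in β-glucan MPP, against 10.4, 10.7, 10.7 and 10.6 CPM in PBS MPP (-0.54 ± 0.09; edgeR adjusted p = 0.00850). The PBS libraries of Klrb1c were tight, and every β-glucan library was lower than they were.

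Cd2 averaged 14.2 ± 0.607 CPM in β-glucan MPP and 18.9 ± 1.11 CPM in PBS MPP (SD, n = 4 each), a change of -0.41 ± 0.07 (edgeR adjusted p = 0.00899). The T cell receptor chains were also called, by a narrower margin. Trac had 10.6, 10.7, 9.40 and 7.69 CPM in β-glucan MPP, against 11.8, 13.4, 12.3 and 13.3 CPM in PBS MPP (-0.41 ± 0.10; edgeR adjusted p = 0.0379). Trbc2 had 7.29, 8.49, 6.76 and 6.55 CPM in β-glucan MPP, against 8.78, 9.63, 10.5 and 9.43 CPM in PBS MPP (-0.40 ± 0.10; edgeR adjusted p = 0.0377). Neither chain overlapped between the groups. Because Trbc2 shares sequence with Trbc1, both were also summed, and the sum averaged 16.4 ± 1.31 CPM in β-glucan MPP and 22.4 ± 0.728 CPM in PBS MPP (SD, n = 4 each).

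The calls of Trac and Trbc2 in MPP rested on the full set of libraries. The Trac call was lost in 6 of 8 fits that each left out 1 library (PBS replicates 1 to 4, β-glucan replicates 3 and 4), with edgeR adjusted p-values from 0.0243 to 0.113 over the 8. Trbc2 was lost in 7 of 8 (all but the fit without β-glucan replicate 2), with values from 0.0131 to 0.117. Ccl5 was lost only without PBS replicate 2 (adjusted p = 0.0505; the lowest of the 8 was 0.00666). Cd2, Klrb1c and Gzma were called in all 8. Without PBS replicate 2, 3 members remained called, and 164 genes were called in all.

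Il2rb, the β chain shared by the IL-2 and IL-15 receptors, was just short of a call. It had 20.5, 21.4, 21.8 and 13.6 CPM in β-glucan MPP, against 24.1, 26.8, 31.7 and 25.7 CPM in PBS MPP (-0.49 ± 0.13; edgeR adjusted p = 0.0518). The groups did not overlap, and β-glucan replicate 4 was the lowest. Cd3e, the ε chain of CD3, had 11.7, 12.1, 11.4 and 9.38 CPM in β-glucan MPP, against 11.7, 18.3, 15.5 and 14.1 CPM in PBS MPP (-0.42 ± 0.12; edgeR adjusted p = 0.0736). Cd3g, the γ chain, was at -0.27 ± 0.13 and overlapped. Nkg7 stood apart with a positive value (0.13 ± 0.06; edgeR adjusted p = 0.222) and averaged 461 ± 32.6 CPM in β-glucan MPP and 418 ± 22.6 CPM in PBS MPP (SD, n = 4 each). Il2rb was called in 6 of the 14 alternatives and Cd3e in 4, with edgeR or other adjusted p-values from 0.00172 to 0.152 for Il2rb and from 0.0148 to 0.196 for Cd3e. In all, 7 members did not overlap, each lower, where 5.24% of all genes lay lower without overlap. The median of the 10 was -0.42 and that of all genes -0.00142.

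The wider lists in β-glucan MPP held further lower T and NK genes. Among all genes tested in this comparison, 4.63% were called in either direction and 1.91% were called lower. Of 24 T cell genes tested, 5 were lower and none higher (median -0.23), among them Lef1 (-0.57 ± 0.08), Trbc1 (-0.49 ± 0.08), Lck, the kinase that starts T cell receptor signalling (-0.34 ± 0.07), and Cd3d (-0.52 ± 0.11). Of 24 NK genes, Il18rap, a chain of the IL-18 receptor (-0.33 ± 0.08), and Ncr1, the NK receptor NKp46 (-0.54 ± 0.13), were lower (median -0.34). The granule list had Ctsw, a protease of cytotoxic cells, lower (-0.36 ± 0.08) and Stx11, a granule fusion protein, higher (0.74 ± 0.17) among 11 tested. In the chemokine list, Ccr7 (-0.52 ± 0.09) and Cx3cr1 (-0.46 ± 0.10) were lower among 9. In the IL-2 and IL-15 pathway, Jak3 was higher (0.70 ± 0.16) and Il2ra lower (-0.55 ± 0.13) among 10.

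Markers of other cell types moved in both directions in β-glucan MPP. B cell markers were lower for 9 of 16 genes (median -0.30) and neutrophil markers for 6 of 10 (median -0.33). The summed neutrophil markers took on average 5.14% of counts in β-glucan MPP and 6.61% in PBS MPP, and the erythroid markers had a median of -0.24 with 1 of 10 called, higher. Megakaryocyte and platelet markers went the other way, with 9 of 9 tested genes positive, 3 of them called higher and none lower (median 0.38). Monocyte and macrophage markers were lower for 2 of 12 genes (median -0.18). The part of these in the members' changes was not tested.

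In HSC on day 28, 9 of 10 members again had negative values, but none was called by edgeR, and 8 had an unadjusted p below 0.05. Only 6 of 16025 genes (0.0374%) were called in this comparison by edgeR, with 2729 (17%) at an unadjusted p below 0.05, and 589 genes by DESeq2 and 598 by limma voom. Il2rb had 20.8, 24.0 and 20.4 CPM in β-glucan HSC replicates 1, 3 and 4 and was lowest in replicate 2 (21.1 ± 2.12 over all; SD, n = 4), against 30.9, 34.4, 30.9 and 27.0 CPM in PBS HSC (-0.56 ± 0.11; edgeR adjusted p = 0.0920). Klrb1c had 6.01, 5.76, 7.80 and 6.59 CPM in β-glucan HSC, against 9.42, 10.5, 9.60 and 8.74 CPM in PBS HSC (-0.56 ± 0.13; edgeR adjusted p = 0.121). Neither gene overlapped between the groups, and nor did Cd3e (-0.43 ± 0.09), Cd3g (-0.31 ± 0.12), Cd2 (-0.30 ± 0.09) or Ccl5 (-0.40 ± 0.10). These are 6 members lower without overlap, where 4.52% of all genes were. Cd3e was tight in both groups, with 12.2, 12.2, 11.7 and 11.8 CPM in β-glucan HSC, against 15.3, 15.7, 16.9 and 16.2 CPM in PBS HSC.

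Gzma (-0.43 ± 0.16), Trbc2 (-0.26 ± 0.13) and Trac (-0.15 ± 0.10) overlapped, and Nkg7 was the only positive member (0.28 ± 0.12), with 568, 535, 396 and 504 CPM in β-glucan HSC, against 368, 450, 369 and 445 CPM in PBS HSC. The median of the 10 was -0.36, and that of all genes -0.0154. DESeq2 and limma voom each called 4 members here (Cd3e, Il2rb, Klrb1c and Ccl5), all lower. Of the T cell list 22 of 24 tested genes and of the NK list 24 of 26 had negative values, with medians of -0.27 and -0.29. EdgeR called none of either list, and 8 genes of each had an unadjusted p below 0.05. The B cell, neutrophil and erythroid lists had medians of -0.25, -0.27 and -0.20. EdgeR called none of these either, with 10, 5 and 2 genes at an unadjusted p below 0.05. The LT-HSC markers, those of the sorted cells themselves, had a median of -0.37, with 11 of 12 negative, none called by edgeR and 7 at an unadjusted p below 0.05. Their summed level was between 440 and 483 CPM in β-glucan HSC, against 475 to 745 CPM in PBS HSC. The part of these lists in the members' values was not tested.

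The change with β-glucan was then set between the cell types of day 28 in 1 fit, as MPP minus HSC. None of the 10 members was called by edgeR or had an unadjusted p below 0.05, and DESeq2 and limma voom called none, where 1 of 16691 genes (0.00599%) was called by edgeR and 1033 genes (6.19%) had an unadjusted p below 0.05. The differences ran from -0.27 ± 0.20 for Gzma to 0.06 ± 0.18 for Il2rb. Gzma was called in MPP and not in HSC, and the edgeR adjusted p of its difference was 0.889, so the effects in these cell types were not shown to differ.

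After 5-FU the signs were different. No member was called by edgeR, 5 had an unadjusted p below 0.05, 8 of 10 had positive values, and the median was 0.38 where that of all genes was -0.00312. In this comparison 7 of 15705 genes (0.0446%) were called by edgeR, 1184 (7.54%) had an unadjusted p below 0.05, and DESeq2 called 147 and limma voom 42. Trac had 9.89, 8.63, 8.18 and 7.20 CPM in β-glucan HSC, against 4.47, 4.77, 4.84 and 5.00 CPM in PBS HSC. Il2rb had 13.7, 14.7, 12.1 and 9.27 CPM in β-glucan HSC, against 6.70, 7.52, 6.45 and 6.00 CPM in PBS HSC. Both genes were higher in all 4 β-glucan libraries than in any PBS library, where 2.40% of all genes were. Trac was at 0.83 ± 0.13 (edgeR adjusted p = 0.0581) and Il2rb at 0.90 ± 0.15 (edgeR adjusted p = 0.0645). DESeq2 and limma voom called both genes.

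Single libraries decided whether Trac and Il2rb passed the test after 5-FU. Trac was called without PBS replicate 3 (edgeR adjusted p = 0.0456) or without β-glucan replicate 4 (0.0469), and Il2rb without β-glucan replicate 4 (0.0242). Over all 14 alternatives the adjusted p ran from 1.71e-05 to 0.193 for Trac and from 1.71e-05 to 0.196 for Il2rb, with fold changes from 0.74 to 0.90 and from 0.81 to 1.01.

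The other members overlapped between β-glucan and PBS HSC after 5-FU. Cd3g was at 0.58 ± 0.20, Trbc2 at 0.50 ± 0.18, Cd3e at 0.43 ± 0.20 and Ccl5 at 0.33 ± 0.13. Cd2 (0.13 ± 0.15), Gzma (0.14 ± 0.21), Klrb1c (-0.09 ± 0.16) and Nkg7 (-0.08 ± 0.12) were within 1 SE of 0. Nkg7 had 492, 519, 456 and 438 CPM in β-glucan HSC, against 403, 507, 640 and 463 CPM in PBS HSC, and PBS replicate 3 was the highest. Of the NK list, 17 of 20 tested genes had positive values (median 0.53), and of the T cell list 17 of 22 (median 0.21). EdgeR called none of these, with 6 NK and 4 T cell genes at an unadjusted p below 0.05. The B cell median was 0.06 and the neutrophil median -0.07. All 10 erythroid markers had negative values (median -0.35), 8 of them at an unadjusted p below 0.05, where 7.54% of all genes were. Their sum took on average 11.2% of counts in β-glucan HSC and 14.6% in PBS HSC. All 12 monocyte and macrophage markers had positive values (median 0.15), 3 of them at an unadjusted p below 0.05. EdgeR called none of these lists either, and their part in the members' values was not tested.

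**Figure D3:**
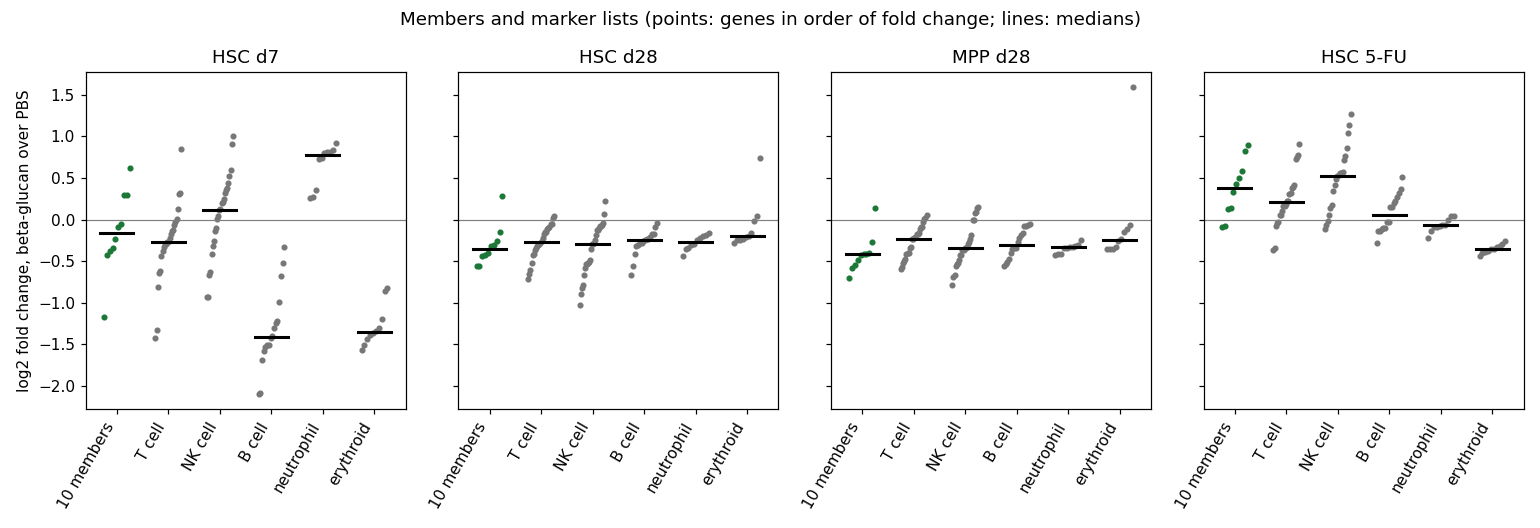
log2 fold change with β-glucan over PBS (vertical axis) for the 10 members (green) and for the T cell, NK cell, B cell, neutrophil and erythroid lists (grey) in the 4 settings. Points are genes in order of fold change and lines are medians, which lie between -0.34 and -0.23 for the T and NK lists on day 28 and at 0.21 and 0.53 after 5-FU.

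Between MPP and HSC of the same treatment, few members were called. In β-glucan mice 1 member was called, where 35.6% of 15945 genes were. Trac had 10.6, 10.7, 9.40 and 7.69 CPM in MPP, against 13.1, 14.3, 12.2 and 11.5 CPM in HSC, with no overlap (-0.41 ± 0.11; edgeR adjusted p = 0.0157). In PBS mice no member was called by edgeR, where 21.7% of 16122 genes were (5676, or 35.2%, at an unadjusted p below 0.05), and 1 member, Gzma, had an unadjusted p below 0.05 (0.29 ± 0.12; edgeR adjusted p = 0.105). DESeq2 called none of the members in PBS mice, and limma voom called Gzma. The medians of the 10 were -0.11 in β-glucan mice and -0.04 in PBS mice.

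Calls in the wider T and NK lists between MPP and HSC were counted against the share of all genes called, 35.6% in β-glucan mice and 21.7% in PBS mice. Cd27, a costimulatory receptor that also marks progenitors, was at 1.46 ± 0.08 in β-glucan mice and 0.89 ± 0.17 in PBS mice. Cd244a, a receptor of NK cells and of some progenitors, was at 1.13 ± 0.10 in β-glucan mice and 0.94 ± 0.14 in PBS mice. Lck was at 0.59 ± 0.07 in β-glucan mice and 0.61 ± 0.11 in PBS mice. In the T cell list 4 genes were higher and 1 lower of 24 in β-glucan mice, and 7 higher and 1 lower of 24 in PBS mice. In the NK list 8 were higher and 1 lower of 24 in β-glucan mice, and 4 higher and 1 lower of 25 in PBS mice. The gene lower in the T cell list was Gata3, a T helper and stem cell transcription factor, in both treatments (-0.36 ± 0.10 in β-glucan mice, -0.60 ± 0.18 in PBS mice). The NK list in both treatments, and the T cell list in β-glucan mice, were thus near or below the share of all genes, and nothing particular to these lists is read from the counts.

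The members moved together only weakly from library to library. With the mean of each group taken off, the 45 pairs of members had a median Pearson r of 0.17 over the 31 libraries, and the range was from -0.29 to 0.59. Cd3g had as few as 69 counts in a library and Nkg7 at least 7380. The part of counting noise in these r values was not tested. Among 12249 genes ranked by the same measure, the genes most like the mean of the 10 were Prom1 (0.73), Sec61a1 (0.73) and Tshr (0.73). The closest gene to each single member other than Nkg7 had a similar r, from 0.71 (Cd3e with Fam126b) to 0.78 (Gzma with Rpgrip1l). What r chance gives for the highest of so many genes was not tested, and no relation is read from these names.

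Nkg7 had a closer partner outside the T and NK genes. The gene most like it was Elane, neutrophil elastase, a primary granule protease of promyelocytes (r = 0.90 over 31 libraries), then Ssr2 (0.89), a subunit of the endoplasmic reticulum translocon complex, and Tbc1d7 (0.87). Within single tables, Nkg7 and Elane were at r = 0.92 over the 7 libraries of day 7, 0.90 over the 16 of day 28 and 0.98 over the 8 after 5-FU. For the other 9 members the r with Elane over 31 libraries lay between -0.18 and 0.43. Values within single tables were wider. They ran from -0.89 for Trac over the 7 libraries of day 7 to 0.78 for Cd3e over the 8 after 5-FU. All 9 had fewer counts than Nkg7, and the part of counting noise in their r values was not tested. These points share library and depth, and the values are descriptions.

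Between β-glucan and PBS after 5-FU, Elane and Nkg7 were both closer to 0 than their SE. In the other settings, on day 7 and in both cell types of day 28, Elane was positive like Nkg7. On day 7 it averaged 4245 ± 981 CPM in β-glucan HSC (SD, n = 3) and 2140 ± 173 CPM in PBS HSC (SD, n = 4), a change of 0.99 ± 0.13 (edgeR adjusted p = 0.00157). On day 28 it was at 0.50 ± 0.12 in HSC (edgeR adjusted p = 0.123) and rose in MPP (0.25 ± 0.06; edgeR adjusted p = 0.0270), and after 5-FU it was at -0.01 ± 0.16. Between MPP and HSC of β-glucan mice, Elane was called lower in MPP (-0.49 ± 0.10; edgeR adjusted p = 0.00385), and Nkg7 was at -0.12 ± 0.10 and not called. In PBS mice Elane was at -0.24 ± 0.08 (edgeR adjusted p = 0.0581), below HSC in every MPP library, and Nkg7 was at 0.03 ± 0.08. Over the 31 libraries, the r of Nkg7 with the summed B cell markers was 0.58, the highest of the 10 members. Its r with the summed neutrophil markers was 0.23, and those with the T cell list (0.0085) and the NK list (-0.03) were near 0. Low values with the T cell list were not particular to Nkg7, as the 10 members ran from -0.49 (Cd3e) to 0.13 (Trac). With the NK list they ran from -0.11 (Trbc2) to 0.47 (Il2rb).

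**Figure D4:**
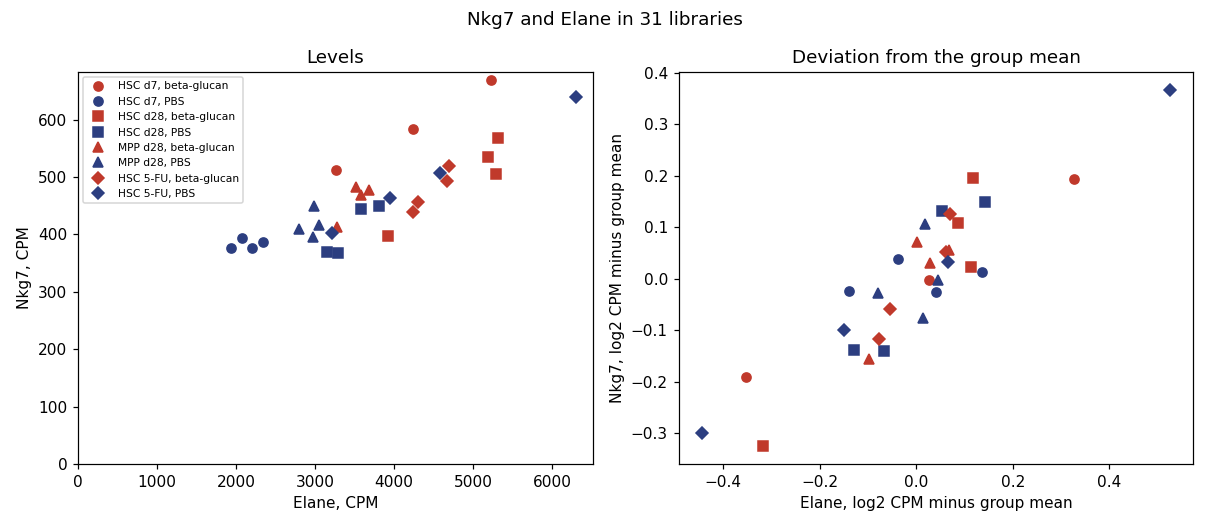
Nkg7 against Elane in 31 libraries, as CPM (left) and as log2 CPM minus the group mean (right). Red is β-glucan and blue is PBS, and the symbols are the 4 settings. The deviations of both genes lie along 1 line, with r = 0.90.

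Cd2 was closest to Zkscan14 (r = 0.77), then to Siglecg (0.77), a lectin of B cells. Its r was 0.45 with the summed B cell markers, 0.42 with the neutrophil markers, 0.36 with the NK list and -0.04 with the T cell list. No member was above 0.13 (Trac) with the T cell list, and Cd3e was at -0.49. Cd3e had a higher r with the neutrophil markers (0.52) than Cd2. Siglecg was at -0.42 ± 0.17 in β-glucan against PBS HSC on day 7 (edgeR adjusted p = 0.180). Trac was closest to H2-Aa, an MHC class II chain (0.76), and Gzma to Rpgrip1l (0.78). These closest genes are the highest of 12249 ranked, and what chance gives there was not tested. The NK list had its highest r with Il2rb (0.47).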

How the data were processed

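The deposited values were raw counts per gene from featureCounts on mm10 after bcl2fastq 1.8.4, per the submitters' processing notes and the file headers; the aligner, and whether strand was used, are not given in the sources used here. Libraries were made with a SMARTer Ultra kit, per the labels. The authors' table columns carry neither day nor 5-FU: the table of 7 libraries was read as day 7, that of 16 with MPP as day 28 and that of 8 as 5-FU, with P as PBS and G as β-glucan. Of the identifiers, 45143 had a symbol. Samples were tested within a table only.

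Tests used edgeR 4.0.16 in R 4.3.3 (trimmed-mean scaling, filterByExpr with a minimum count of 10, quasi-likelihood test, Benjamini-Hochberg over all genes, threshold 0.05) and were tested on simulated data. Alternatives were DESeq2 1.42.0, limma 3.58.1 voom, DESeq2 size factors, no filter, CPM of at least 1, a replicate block and each library left out in turn. The members and lists were chosen with earlier results of these data known; of each list, up to 4 called genes of the smallest p were named. Likeness used log2 CPM (prior count 2) with group means taken off. Same-numbered β-glucan MPP and HSC libraries deviated together (r from 0.126 to 0.200, 4 of 4 closest to their own number), and some other same-numbered libraries of day 28 did so too. The labels state no pairing, and the main fits treated all libraries as independent, also between MPP and HSC. Only the replicate block among the alternatives used the numbers. No pair among 45 replicate pairs agreed within sampling noise (chi-square per gene 6.75 to 50.3). The labels do not say whether the spread between libraries includes differences between mice. No per-library column was left unused.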

Additional observations from a re-analysis of the deposited data

Results flagged for a closer look

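Single libraries stood apart from the rest of their group for 3 members, among 70 sets of 4 libraries examined, and chance alone gives about 1 in 20. Il2rb was at 13.6 CPM in β-glucan MPP replicate 4 on day 28, where the other 3 libraries had 20.5 to 21.8 CPM. Trbc2 was at 7.15 CPM in β-glucan HSC replicate 1 after 5-FU, where the others had 5.68 to 5.89 CPM. Gzma was at 9.69 CPM in PBS MPP replicate 4 on day 28, where the others had 10.9 to 11.1 CPM.

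The β-glucan libraries of Trac and Il2rb lay wholly to opposite sides of PBS in different settings. Trac was lower on day 7 in HSC (-0.38) and on day 28 in MPP (-0.41) and higher in HSC after 5-FU (0.83). Il2rb was lower in HSC on day 7 (-0.34), in HSC on day 28 (-0.56) and in MPP on day 28 (-0.49), and higher in HSC after 5-FU (0.90). These settings come from different tables, and the difference between them was not tested.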

How the results depend on the processing

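Of 1050 recomputed fold changes of the members, 963 kept their direction and side of the threshold, 32 gained a call, 14 lost one and 41 reversed. For genes called on day 7 (1102), DESeq2 gave 1711, limma voom 1744 and the replicate block 645. For HSC on day 28 (6), no filter gave 182, DESeq2 589, limma voom 598 and the block 14. For MPP (733), no filter gave 1181 and DESeq2 1302. After 5-FU (7), no filter gave 110, a CPM of at least 1 gave 14, DESeq2 147, limma voom 42 and the block 16. For the MPP minus HSC difference (1), no filter, DESeq2 and the block gave 2 each. Of the 10 members, HSC on day 28 had 1 called with no filter and 4 with DESeq2 and with limma voom; after 5-FU the number was 2 with no filter, 1 at a CPM of at least 1, and 2 with DESeq2 and with limma voom; in PBS mice limma voom called 1 between MPP and HSC. In β-glucan against PBS MPP, Il2rb was called with no filter, at a CPM of at least 1, with DESeq2, limma voom, the replicate block (adjusted p = 0.0189) and without β-glucan replicate 2, and Cd3e with no filter, DESeq2, the block (0.0486) and without PBS replicate 1; all 14 lost calls were those of Trac, Trbc2 and Ccl5 in MPP with a library left out. Between MPP and HSC, Nkg7 was called in β-glucan mice without HSC replicate 3 (-0.22; 0.0284) and Gzma in PBS mice without HSC replicate 3 (0.38; 0.0285). The cause was not tested.

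With each library left out in turn, genes called ran from 500 to 1252 on day 7, 1 to 51 in HSC on day 28, 164 to 1010 in MPP, 2 to 61 after 5-FU, 4605 to 5684 between MPP and HSC in β-glucan mice, 2004 to 5050 in PBS mice (2004 without MPP PBS replicate 1) and 1 to 3 for the difference. Members called ran from 2 to 2, 0 to 0, 3 to 7, 0 to 2, 1 to 2, 0 to 1 and 0 to 0 in the same comparisons.

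Fold changes that reversed were all near 0. Trbc2 on day 7 was 0.014 with limma voom and 0.051 with the replicate block, and -0.15 to 0.047 with a library left out. Trbc2 between MPP and HSC in PBS mice was 0.0036 with limma voom and -0.082 to 0.0052. For the difference, Cd3e was 0.0071 with DESeq2 size factors, 0.00051 at a CPM of at least 1, 0.0079 with DESeq2, 0.011 with the block and -0.10 to 0.11 with a library left out; Klrb1c was -9.65e-05 with no filter and -0.045 to 0.11; Cd3g was -0.052 with limma voom and -0.045 to 0.12. With a library left out, Klrb1c ran from -0.20 to 0.046 on day 7 and -0.18 to 0.045 after 5-FU, Nkg7 from -0.17 to 0.058 and Cd2 from -0.0035 to 0.20 after 5-FU, Ccl5 from -0.14 to 0.035, Gzma from -0.086 to 0.12 and Il2rb from -0.19 to 0.011 between MPP and HSC in β-glucan mice, and Nkg7 from -0.016 to 0.078 in PBS mice.

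For the comparisons other than β-glucan MPP with HSC, r between same-numbered libraries ran from -0.06 to 0.17. On day 28, 3 of 4 β-glucan HSC libraries were closest to their own number in PBS HSC, as were 3 of 4 β-glucan MPP libraries in PBS MPP. In PBS mice, 2 of 4 MPP libraries were closest to their own number in HSC. On day 7 and after 5-FU the number was 0. What the same-numbered libraries share was not tested. For β-glucan MPP against HSC the replicate block changed no member's call. The lowest member had 69 counts in its lowest library, and the smallest change that this depth can show was not measured.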
